A study of Mus musculus with 30 samples.

Results

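Matrix metalloproteinases (Mmp genes), Adamts proteases and the tissue inhibitors of metalloproteinases (Timp genes) were followed in cultured adipose-derived stem cells of young and aged, lean and obese mice. Members were the protein-coding genes whose mouse symbol is Mmp, Adamts or Timp followed directly by a number. There were 45 members among the 38561 genes of the count table, 22 Mmp, 19 Adamts and 4 Timp genes. Of these, 25 had a mean of 1 CPM or more (counts scaled to a common library total) over the 30 libraries, 9 Mmp, 13 Adamts and 3 Timp genes. A further symbol of this form, Mmp1a, is annotated as a polymorphic pseudogene in GENCODE and was not a member.

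RNA came from stem cells of the inguinal fat pad, sorted for Sca-1 and CD34 and against CD31, CD45 and Ter119 and expanded to passage 2 mouse by mouse, with 1 library each. The groups, all male C57BL6/J mice, were aged obese (n = 6), aged lean, young obese and young lean (n = 8 each). Obese animals had a lard-based diet from weaning in which fat gave 60% of the calories, and lean animals had control chow. Young mice were killed at 20 weeks of age and aged mice at 52 weeks. Per the deposited overview, 12 mice were bought per group and 8 of the aged obese were alive near the end, so that this group holds survivors. Aged obese mice had eaten the diet for longer than young obese mice, and age and time on the diet cannot be told apart among obese mice.

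Mmp and Adamts proteins are secreted or membrane-bound zinc proteases that cut the extracellular matrix. Most are made as inactive precursors whose propeptide must be removed, and Timp proteins block their active site. In fat, the collagen-cutting membrane protease encoded by Mmp14 is known for remodelling the matrix around adipocytes and their precursors, and Adamts proteins for maturing procollagen and cutting proteoglycans.

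Each library held 30597765 to 47970233 counts in genes. Ly6a, which encodes Sca-1, lay between 176.4 and 1254 CPM and Cd34 between 0.193 and 37.9 CPM, with the lowest value of both in aged obese 10. The haematopoietic marker Ptprc (CD45), the macrophage marker Adgre1 and the haemoglobin genes Hbb-bs and Hba-a1 were at or near 0 in the 30 libraries. Other haematopoietic markers had counts: Csf1r averaged 17.8 CPM, Cd68 3.70 CPM, Lyz2 1.915 CPM and Itgam 0.0206 CPM. Of the adipocyte genes, Lep was at 0, while Fabp4 averaged 43.4 CPM, Adipoq 1.74 CPM, Plin1 1.035 CPM and Cidec 0.140 CPM. Adipoq reached 16.4 CPM in aged lean 12. Of the mural markers, Acta2 was abundant (2563 to 6858 CPM). Des averaged 91.8 CPM, Myh11 87.1 CPM, Notch3 32.3 CPM and Cspg4 18.8 CPM, while Rgs5 averaged 0.951 CPM and Kcnj8 0.0514 CPM. In bulk RNA, fewer cells of a type and less RNA per cell cannot be told apart.

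The members lie on many chromosomes, with 1 long run. Mmp13, Mmp12, Mmp1b, Mmp3, Mmp10, Mmp8, Mmp27, Mmp20 and Mmp7 follow each other on chromosome 9 with no other coding gene in between (Mmp1a lies among them). Of these 9 members 1 (Mmp3) was expressed at a mean of 1 CPM or more, against 24 of the 36 members outside the run. The run summed to 4.51 CPM, and the other members to 6304 CPM.

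RefSeq promoters (GRCm38.p6, 250 bases before to 50 after the start of transcription) were found for 31 of the 45 members, 34 windows in all. Those of 3 members of the run and of Mmp14, the most abundant protease and located outside it, show how the 2 sets of windows differ in sequence. Capitals mark TGANTCA (the AP-1 motif, which reads the same on both strands), TATAAA (the TATA box) and TGTGGT (the Runx core, written ACCACA where it lies on the other strand).
Mmp3 (chr9:7445572-7445871, + strand): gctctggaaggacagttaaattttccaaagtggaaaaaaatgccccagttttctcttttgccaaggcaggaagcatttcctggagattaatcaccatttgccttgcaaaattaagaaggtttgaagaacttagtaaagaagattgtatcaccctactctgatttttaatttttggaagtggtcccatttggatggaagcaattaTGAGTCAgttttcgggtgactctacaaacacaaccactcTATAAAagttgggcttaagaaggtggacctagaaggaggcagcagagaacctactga
Mmp10 (chr9:7502092-7502391, + strand): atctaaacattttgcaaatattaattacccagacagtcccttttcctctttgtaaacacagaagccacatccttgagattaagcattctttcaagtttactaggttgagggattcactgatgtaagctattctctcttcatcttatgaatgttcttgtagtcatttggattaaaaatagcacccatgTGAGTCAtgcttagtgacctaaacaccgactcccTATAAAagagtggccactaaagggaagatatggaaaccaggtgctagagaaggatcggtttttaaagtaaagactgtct
Mmp13 (chr9:7272264-7272563, + strand): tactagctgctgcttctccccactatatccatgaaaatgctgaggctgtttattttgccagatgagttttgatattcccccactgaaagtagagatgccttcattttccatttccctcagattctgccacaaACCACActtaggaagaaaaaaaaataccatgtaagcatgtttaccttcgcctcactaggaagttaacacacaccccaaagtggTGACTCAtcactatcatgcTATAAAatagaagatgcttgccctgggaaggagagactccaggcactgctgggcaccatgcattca
Mmp14 (chr14:54431348-54431647, + strand): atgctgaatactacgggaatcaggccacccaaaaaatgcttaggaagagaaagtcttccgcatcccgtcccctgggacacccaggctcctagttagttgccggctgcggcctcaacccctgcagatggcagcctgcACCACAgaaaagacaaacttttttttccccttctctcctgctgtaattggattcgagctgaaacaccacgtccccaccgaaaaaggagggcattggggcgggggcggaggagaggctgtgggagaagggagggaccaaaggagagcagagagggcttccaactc

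TGANTCA was found in 7 of the 11 windows of the run, in 0 of the 23 windows of other members and in 7.81% of 32851 mouse promoter windows of the same length. TATAAA was found in 8 of 11, 2 of 23 and 13.6%, and TGTGGT in 4 of 11, 2 of 23 and 16.8%, searched on both strands. In the windows printed above, the AP-1 letters began 46 bases before the start in Mmp3, 63 in Mmp10 and 35 in Mmp13, each upstream of the TATA letters. Such a match is a description of the letters and not a measured site. Of the 7 run members with TGANTCA, Mmp3 was expressed at 1 CPM or more. The promoters of Adamts3 and Mmp25, both described below, held none of the 3 motifs.

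Levels of different genes were compared as CPM per kb of the longest protein-coding transcript, averaged over the 30 libraries. The inhibitors led: Timp1 had 887.7 CPM per kb, Timp2 206.7 and Timp3 193.4, and together the Timp genes made up 55.3% of the summed level per kb of all 45 members. Mmp genes made up 34.4% and Adamts genes 10.3%. Timp1 was the highest Timp and Mmp14 the highest Mmp in 30 of 30 libraries, and Adamts2 the highest Adamts in 29, with Adamts1 ahead in 1.

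**Figure D1:**
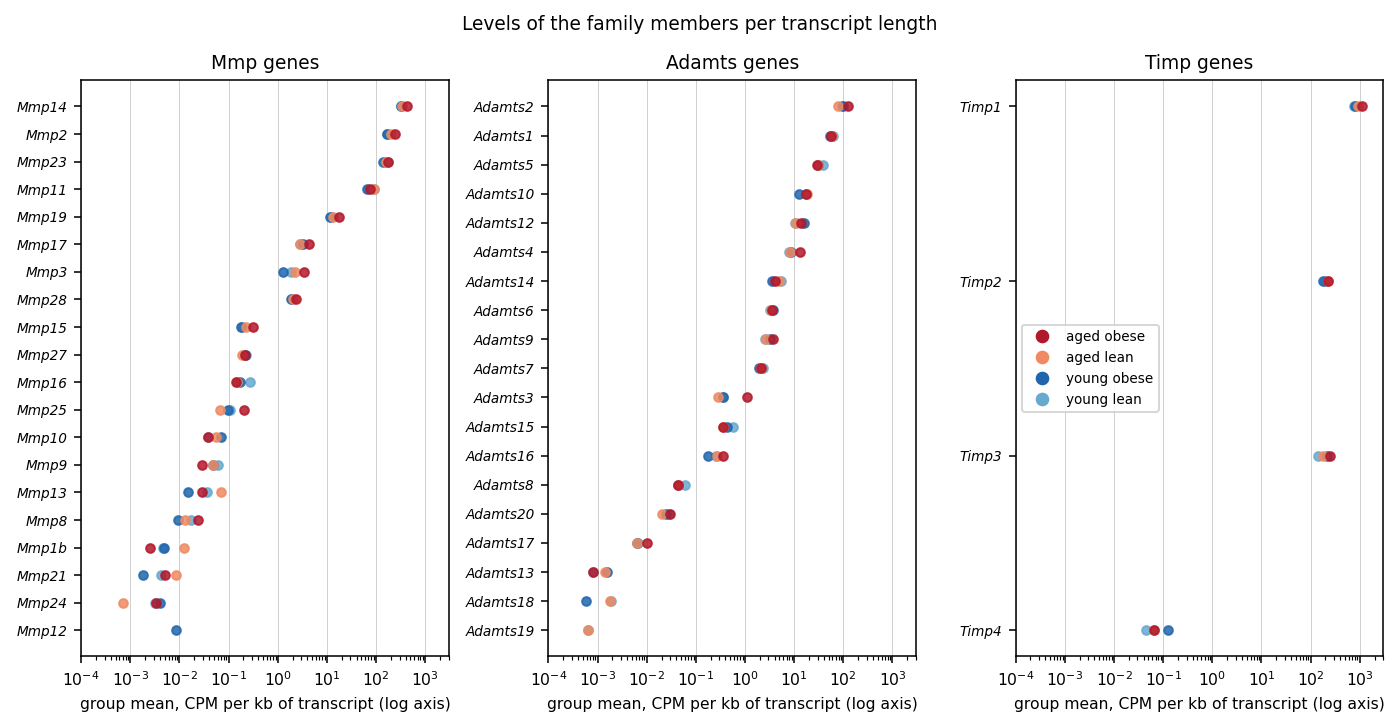
Group means of the members with counts, in CPM per kb of transcript on a log axis, for aged obese (n = 6), aged lean, young obese and young lean libraries (n = 8 each), with 1 panel per family. Mmp14 heads the Mmp genes, Adamts2 the Adamts genes and Timp1 the Timp genes in all 4 groups. Mmp2 comes after Mmp14 except in young lean libraries, where Mmp23 (172.6 CPM per kb) and Mmp2 (170.6) are close.

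Among the Mmp proteases the membrane-bound Mmp14 led with 348.2 CPM per kb. Its partner Mmp2, the gelatinase whose precursor Mmp14 activates with the help of Timp2, had 191.5 CPM per kb, while the other gelatinase, Mmp9, averaged 0.151 CPM. Mmp23 followed with 160.1 CPM per kb and Mmp11, a stromelysin that is activated inside the cell by furin, with 80.5. These 4 genes held 97.3% of the level per kb of the Mmp family. The 3 secreted collagenases, Mmp13, Mmp8 and Mmp1b, all lay below 1 CPM, the highest being Mmp13 with 0.101 CPM. Mmp7 and Mmp20 had 0 counts among the 1094951532 of all libraries, which allows a level of up to 0.00274 CPM. Mmp12 had 9 counts, all in young obese libraries and 6 of them in young obese 20.

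Among the Adamts proteases, each of the 3 procollagen N-proteinases, which cut the amino-terminal propeptide from fibrillar procollagens, were expressed: Adamts2 had 96.2 CPM per kb, Adamts14 4.45 and Adamts3 0.489. Of the 7 proteoglycanases, which cut aggrecan and versican, 5 reached 1 CPM, led by Adamts1 (57.8 CPM per kb) and Adamts5 (32.5). Adamts10, a protease linked to fibrillin microfibrils, had 16.4 CPM per kb. Their substrates were abundant too, with Col1a1 at 30130 CPM and the proteoglycan Vcan at 808.4 CPM, whereas the cartilage proteoglycan Acan averaged 0.0164 CPM. Adamts13, which cuts von Willebrand factor, had 6 counts in all.

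Several members share sequence with a gene on the opposite strand, and whether the counting used strand is not given in the sources used here. Timp1, Timp3 and Timp4 lie inside Syn1, Syn3 and Syn2, and exons overlap between Timp3 and Syn3 and between Timp4 and Syn2. These Syn genes averaged 2.96, 0.614 and 0.160 CPM. Exons of Mmp11, Mmp19 and Adamts7 overlap those of Chchd10, Tmem198b and Tbc1d2b, and those of Adamts4, Adamts9, Mmp28 and a few rare members overlap other genes, so reads there cannot be assigned without strand. Adamts3, Mmp17 and Mmp25 overlap no exon of another annotated gene.

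The abundant members were given by library before any comparison. Mmp14 had 1186 CPM as its lowest, 1438 as its median and 1674 as its highest value in aged obese libraries, 720.2, 1012 and 1530 CPM in aged lean, 607.0, 947.4 and 1562 CPM in young obese and 852.8, 1051 and 1335 CPM in young lean libraries. Mmp2 had 498.6, 713.4 and 995.2 CPM in aged obese, 315.8, 685.6 and 906.9 CPM in aged lean, 353.5, 393.8 and 855.9 CPM in young obese and 473.2, 521.6 and 590.6 CPM in young lean libraries. For both genes the 4 groups overlapped, and the highest value of all libraries was in aged obese 17. Adamts2 averaged 906.8 ± 378.0 CPM in aged obese (SD, n = 6), 569.4 ± 172.7 in aged lean, 703.8 ± 349.6 in young obese and 667.2 ± 80.5 CPM in young lean libraries (n = 8 each).

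Timp1 had 598.3, 968.0 and 1270 CPM (lowest, median and highest) in aged obese, 409.3, 796.3 and 1372 CPM in aged lean, 584.5, 706.8 and 782.3 CPM in young obese and 354.1, 598.0 and 1477 CPM in young lean libraries. Timp3, which binds to the matrix and also inhibits Adamts4 and Adamts5, had 416.2, 1133 and 2224 CPM in aged obese, 452.2, 792.4 and 1448 CPM in aged lean, 407.9, 899.8 and 1710 CPM in young obese and 197.8, 594.1 and 1730 CPM in young lean libraries. Again the 4 groups overlapped. Timp2 ranged from 454.0 to 1398 CPM in aged obese and from 624.1 to 844.9 CPM in young lean libraries. Timp4 was rare, with a mean of 0.361 ± 0.464 CPM in aged obese (n = 6), 0.350 ± 0.222 in aged lean, 0.705 ± 0.951 in young obese and 0.244 ± 0.163 CPM in young lean libraries (SD, n = 8 each).

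**Figure D2:**
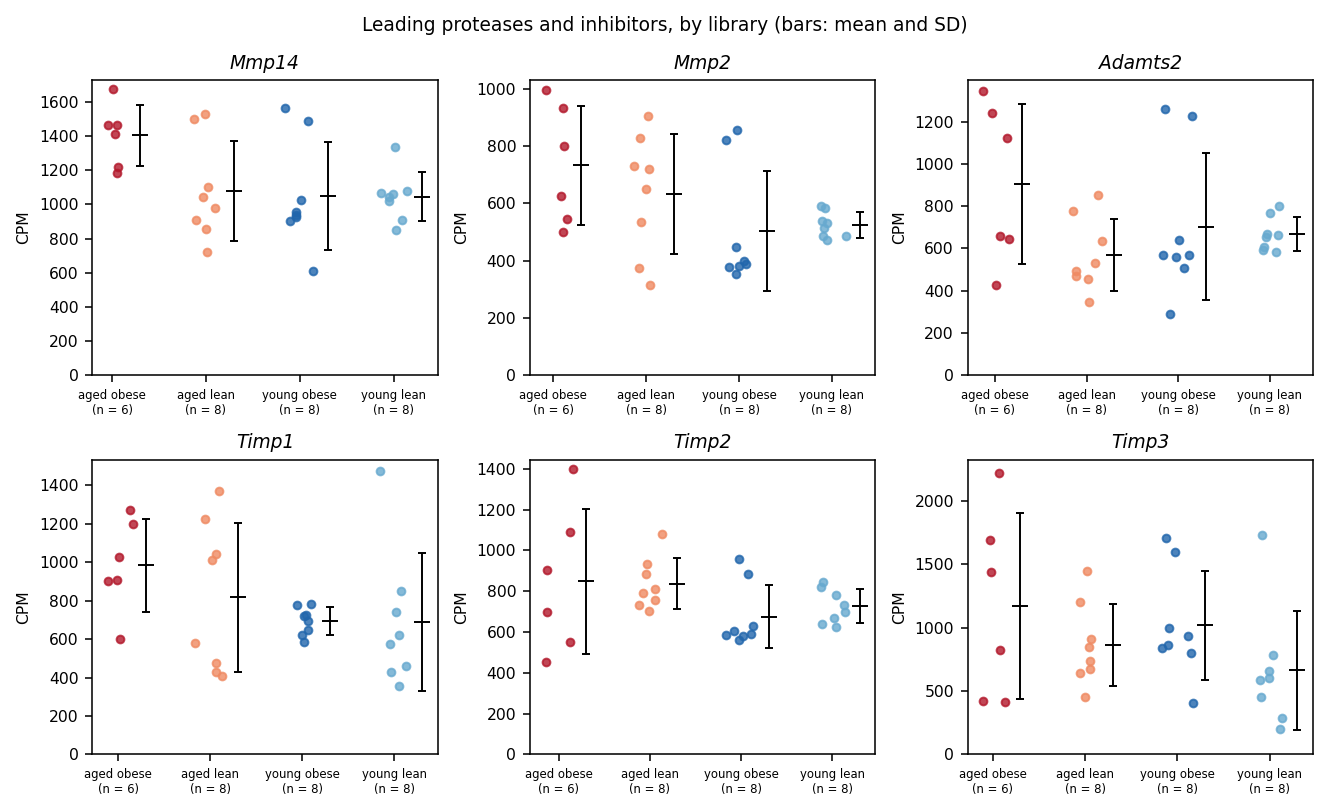
CPM of Mmp14, Mmp2, Adamts2, Timp1, Timp2 and Timp3 in each library (points), with the mean and SD of each group (bars), for aged obese (n = 6), aged lean, young obese and young lean libraries (n = 8 each). For these 6 genes the groups overlap, and 2 young obese libraries lie well above the other 6 for Mmp14, Mmp2, Adamts2, Timp2 and Timp3.

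Differences between groups were tested with edgeR's quasi-likelihood test over 14438 genes, 30 of them members (12 Mmp, 14 Adamts and 4 Timp genes). The other 15 members were too low for the filter. A member was called where its Benjamini-Hochberg adjusted p lay below 0.05, and each fold change is given as log2 ± SE. The comparisons share libraries: each obese and lean group enters several of them.

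With age among obese mice 1 of the 30 members was called, against 3.07% of all tested genes (443; 1.87% higher and 1.20% lower). This was Adamts3, which encodes a procollagen N-proteinase that also activates the lymphatic growth factor VEGF-C, and it was higher in aged obese libraries. Adamts3 had 1.59 CPM as its lowest, 3.25 as its median and 10.1 as its highest value in aged obese libraries, against 0.647, 0.958 and 3.06 CPM in young obese libraries. All 6 aged obese libraries lay above the young obese median and 4 above the highest young obese library, so the groups overlapped. The highest values were in aged obese 14 (10.1 CPM, 385 counts) and aged obese 15 (5.98 CPM, 194 counts), and the 2 high young obese libraries were 1 and 2 (3.06 and 2.80 CPM). The log2 fold change was 1.64 ± 0.44 (edgeR, adjusted p = 0.0409). The call ended without aged obese 14 (1.20 ± 0.43, adjusted p = 0.137), without aged obese 15 (adjusted p = 0.120) and without any 1 of young obese 18 to 23 (adjusted p = 0.0621 to 0.0757), and it also ended in a fit of only the obese groups (adjusted p = 0.0869) and with no filter on low counts (0.0562). Without young obese 1 and 2, the highest of their group for Adamts3, the fold change rose by construction, to 2.28 ± 0.45 (edgeR, adjusted p = 0.00778).

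Adamts3 included, 24 of the 30 members had a positive fold change with age among obese mice, with a median of 0.32 on the log2 scale, beside 51.8% of all tested genes and a median of 0.01. Of the 12 Mmp genes 11 were positive (median 0.42), of the 14 Adamts genes 10 (median 0.18) and of the 4 Timp genes 3 (median 0.27). The largest value among the Mmp genes was that of the stromelysin Mmp3 (1.47 ± 0.80, adjusted p = 0.322). Mmp14 had 0.42 ± 0.17 (adjusted p = 0.171) and Mmp2 0.54 ± 0.22 (adjusted p = 0.176). The call of single members depended on the 2 young obese libraries that stand apart. Without them 643 of 14403 genes were called, 446 of them higher, and 5 members were called higher, namely Adamts3, Adamts4, Mmp14, Mmp2 and Mmp25. Mmp2 had 0.91 ± 0.20 (adjusted p = 0.0125) and Mmp14 0.65 ± 0.16 (adjusted p = 0.0198), and 29 of 30 fold changes were positive. Those 2 libraries held the highest young obese values of all 5 members. Leaving them out therefore raised these fold changes by construction, and the added calls are not separate evidence.

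With obesity among aged mice 1 of the 30 members was called, against 0.222% of all tested genes (32; 0.166% higher and 0.0554% lower). This was Mmp25, a membrane protease with a GPI anchor that is best known from leukocytes, and it was higher in aged obese libraries. Mmp25 had 0.456 CPM as its lowest, 0.929 as its median and 1.31 as its highest value in aged obese libraries, against 0.0866, 0.261 and 0.653 CPM in aged lean libraries. All 6 aged obese libraries lay above the aged lean median, 4 lay above the highest aged lean library (aged lean 11), and the groups overlapped. The gene was low: 18 to 52 counts per aged obese library and 3 to 25 per aged lean library. The log2 fold change was 1.61 ± 0.33 (edgeR, adjusted p = 0.0303), and it ranged from 1.48 to 1.88 when single libraries were left out. The call held in 22 of these 30 fits and ended without aged obese 10, 12 or 14 and without aged lean 12, 13, 17, 19 or 20 (adjusted p up to 0.0880), and also without both aged obese 10 and 12 (1.43 ± 0.37, adjusted p = 0.105), with no filter (0.0520) and in a fit of only the aged groups (0.180).

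Neutrophil markers were counted beside Mmp25. The summed level of the 5 listed genes (S100a8, S100a9, Mpo, Elane and Ly6g) ranged from 0 to 0.535 CPM in aged obese and from 0 to 0.322 CPM in aged lean libraries, with medians of 0.233 CPM in aged obese and 0.127 CPM in aged lean libraries and its highest value in aged obese 10. Mpo averaged 0.179 CPM in aged obese and 0.0916 CPM in aged lean libraries, and Elane 0.0378 and 0.0137 CPM in the same order. S100a8 averaged 0.00876 CPM in aged obese and 0.0159 CPM in aged lean libraries, Ly6g 0.0107 and 0.0196 CPM in the same order, and S100a9 and Ptprc were at 0 in every library of both groups. The 6 haematopoietic markers summed to 15.9 to 29.95 CPM in aged obese and 12.03 to 36.7 CPM in aged lean libraries, mostly from Csf1r. The part of these markers in the difference of Mmp25 was not tested.

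Adamts3 came close to the threshold in the same comparison, with values of 0.173, 1.21 and 1.68 CPM (lowest, median and highest) in aged lean libraries against the aged obese values given above. The log2 fold change was 1.964 ± 0.447 (edgeR, adjusted p = 0.0519), all 6 aged obese libraries lay above the aged lean median, and DESeq2 called it (adjusted p = 0.00365). Adamts3 was also called with an offset by GC and length (0.0358), with voom (0.0382) and without young obese 1 and 2 (0.0260). It was not called with no filter, with only the groups compared or without aged obese 10 and 12. With 1 library left out, Adamts3 was called in 6 of 30 fits. Over all members, 22 of 30 fold changes were positive (median 0.24), beside 51.2% of all tested genes (median 0.01). Adamts2, the abundant procollagen N-proteinase, had 0.67 ± 0.26 (adjusted p = 0.267) and the proteoglycanase Adamts4 0.67 ± 0.24 (adjusted p = 0.214).

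**Figure D3:**
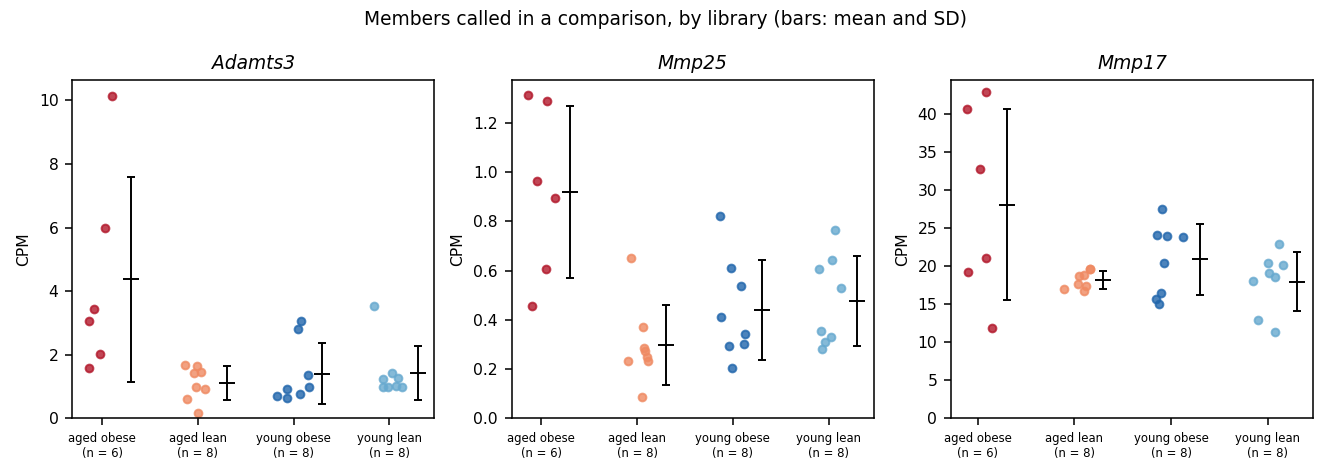
CPM of the 3 called members in each library (points), with the mean and SD of each group (bars), for aged obese (n = 6), aged lean, young obese and young lean libraries (n = 8 each). Adamts3 is spread up to 10.1 CPM and Mmp25 up to 1.31 CPM in aged obese libraries, while the aged obese values of Mmp17 run from 11.9 to 42.8 CPM and overlap all other groups.

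With obesity among young mice 0 of the 30 members were called by edgeR, against 8.83% of all tested genes (1275, with 3.46% higher and 5.37% lower). An unadjusted p below 0.05 was found for 4 members, beside 28.3% of all tested genes. DESeq2 called 1 member and 1793 of all genes, and limma's voom with quality weights, which gives uneven libraries less influence, called 8 members and 4266 of all genes. The smallest adjusted p (0.0536) belonged to the procollagen N-proteinase Adamts14. It had 12.6, 19.2 and 21.8 CPM (lowest, median and highest) in young obese libraries, against 20.2, 26.4 and 36.8 CPM in young lean libraries, a log2 fold change of -0.58 ± 0.19. All 8 young obese libraries lay below the young lean median and 4 below the lowest young lean library. Adamts10, the other member nearest the threshold, had -0.52 ± 0.24 (adjusted p = 0.142). For Adamts14, DESeq2 gave a call (adjusted p = 0.0365), as did the fit of only the young groups (0.0207). Voom with quality weights (0.00375) and the fit without aged obese 10 and 12 (0.0366) also called it. It was not called with DESeq2 size factors, no filter, the offset by GC and length or without young obese 1 and 2. That pair held the lowest young obese values (15.5 and 12.6 CPM), so leaving it out narrowed the difference by construction. With 1 library left out, Adamts14 was called in 5 of 30 fits. Timp4 had the largest fold change (1.496 ± 0.695, adjusted p = 0.155), with its highest young obese value, 2.57 CPM, in young obese 1. Of the 30 fold changes 10 were positive (median -0.09), beside 47.6% of all tested genes (median -0.02).

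With age among lean mice 0 of the 30 members were called by edgeR, against 0.0% of all tested genes. An unadjusted p below 0.05 was found for 2 members, beside 5.35% of all tested genes. DESeq2 and voom with quality weights also called 0 members, and 8 and 6 of all genes. The members with the smallest adjusted p (0.850 each) were the membrane proteases Mmp16 and Mmp25. Mmp16 averaged 0.750 ± 0.443 CPM in aged lean and 1.37 ± 0.84 CPM in young lean libraries (SD, n = 8 each), a log2 fold change of -0.87 ± 0.36. For Mmp14 the difference between aged lean and young lean libraries was 0.05, with a 95% interval from -0.26 to 0.36, and for Timp2 it was 0.21, from -0.12 to 0.53. Of the 30 fold changes 18 were positive (median 0.03), beside 45.6% of all tested genes (median -0.02), and 15 were with an offset by GC and length.

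Aged obese libraries were also set against young lean ones, which differ in both age and diet. Here 2 of the 30 members were called, against 10.3% of all tested genes (1483, with 5.62% higher and 4.65% lower), and both were higher in aged obese libraries. Adamts3 had the aged obese values given above, against 0.977, 1.1 and 3.52 CPM (lowest, median and highest) in young lean libraries, where the next value below the highest was 1.42 CPM. Its log2 fold change was 1.61 ± 0.44 (edgeR, adjusted p = 0.0214), and the call held in 28 of 30 fits without 1 library, ending without aged obese 14 (adjusted p = 0.0754) and without aged obese 15 (0.0590).

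Mmp17, the other protease with a GPI anchor, had 11.9, 26.9 and 42.8 CPM (lowest, median and highest) in aged obese libraries, against 11.4, 18.8 and 22.9 CPM in young lean libraries. The 2 highest values were in aged obese 10 and 12 (40.7 and 42.8 CPM), 5 of the 6 aged obese libraries lay above the young lean median, and the groups overlapped. The log2 fold change was 0.65 ± 0.20 (edgeR, adjusted p = 0.0401). Without aged obese 10 and 12 it was 0.25 ± 0.19 (adjusted p = 0.379), and with quality weights 0.12 ± 0.19 (adjusted p = 0.720). The call also ended without aged obese 10, 12 or 15 alone and without young lean 7, 26 or 27 alone (adjusted p = 0.0503 to 0.131), with an offset by GC and length (0.104) and in a fit of only these groups (0.142).

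All 4 Timp genes had positive fold changes in this comparison, and none was called. The values were 0.51 ± 0.28 for Timp1, 0.23 ± 0.18 for Timp2 and 0.82 ± 0.40 for Timp3 (adjusted p = 0.222, 0.426 and 0.175). Without young lean 1, whose Timp1 (1477 CPM) and Timp3 (1730 CPM) were the highest of its group, both were called higher in aged obese libraries (adjusted p = 0.0385 and 0.0320). Leaving out the highest young lean library raised these fold changes by construction. Without aged obese 10 and 12, Timp2 (0.50 ± 0.16, adjusted p = 0.0421) and Timp3 (1.232 ± 0.395, adjusted p = 0.0455) were called higher. That pair held the lowest aged obese values of both genes, so these fold changes also rose by construction. Of the 30 fold changes 21 were positive (median 0.39), beside 48.8% of all tested genes (median -0.01).

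The interaction asks whether the obesity effect differed between aged and young mice, and 0 of the 30 members were called by edgeR, against 0.00693% of all tested genes (1). Unadjusted p lay below 0.05 for 2 members, beside 8% of all tested genes. DESeq2 called 0 members and 7 of all genes. Voom with quality weights called 2 members, Adamts3 and Mmp25, and 91 of all genes. The smallest adjusted p was that of Mmp25 (1.74 ± 0.46, adjusted p = 0.290), and Adamts3 had the largest fold change (1.997 ± 0.613, adjusted p = 0.411). The obesity effect was 1.964 in aged and -0.03 in young mice for Adamts3, and 1.61 in aged and -0.13 in young mice for Mmp25, on the log2 scale. Of the 30 values 26 were positive (median 0.34), among them all 12 Mmp genes, beside 53.5% of all tested genes (median 0.02).

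**Figure D4:**
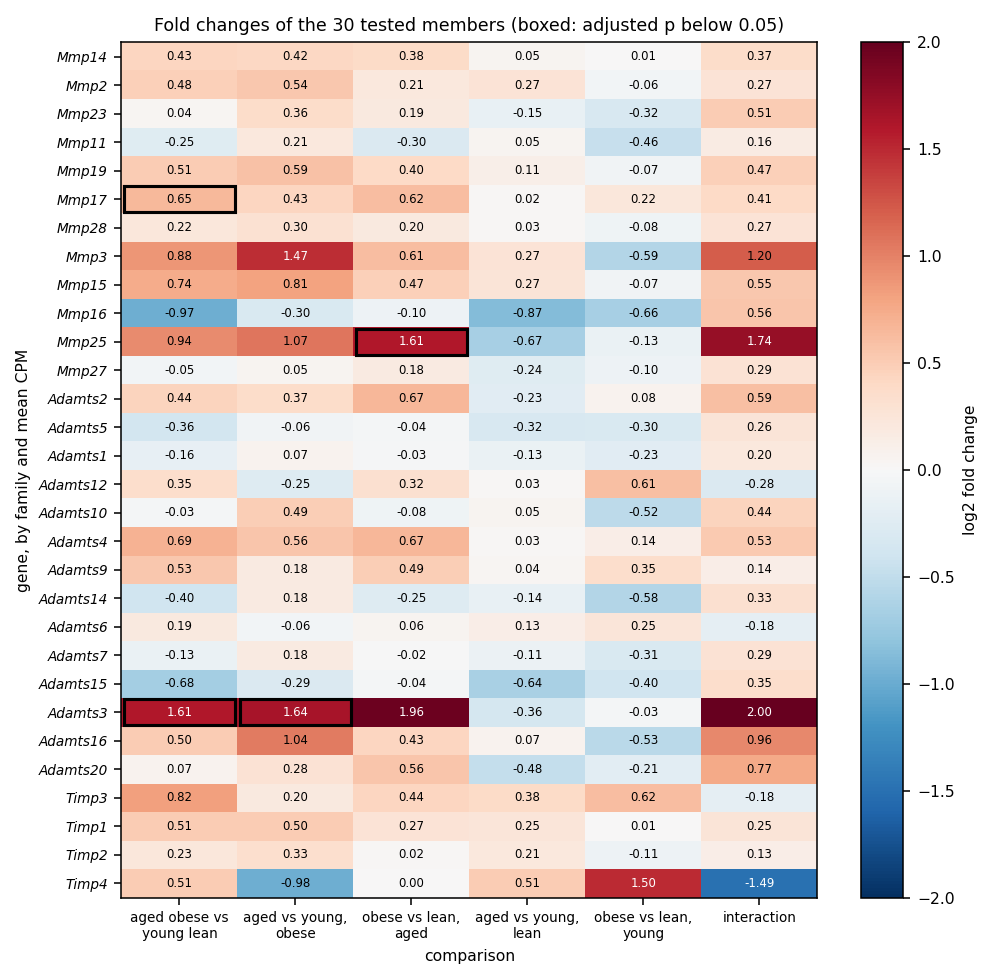
Log2 fold changes of the 30 tested members (rows, by family and mean level) in 6 comparisons (columns), with red for positive and blue for negative values and a box around each adjusted p below 0.05. The 4 boxes are Adamts3 with age among obese mice and in aged obese against young lean mice, Mmp17 in aged obese against young lean mice and Mmp25 with obesity among aged mice.

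Some libraries stood apart from the rest of their group for many members. Young obese 1 and 2 both lay above the other 6 young obese libraries for 14 of the 25 expressed members (56.0%), against 32.7% of 12164 genes at a mean of 1 CPM or more, and below them for 2 (8.0%), against 29.3%. Mmp14 had 1562 and 1486 CPM in young obese 1 and 2, and 607.0 to 1023 CPM in the remaining 6. The proteoglycanase Adamts15 had 8.65 and 8.32 CPM in the pair and 0.235 to 1.05 CPM in the others. Mmp3 had 5.31 and 6.22 CPM in the pair and 0.574 to 1.91 CPM in the others. Below the other libraries lay Adamts14 and Mmp15.

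Aged obese 10 and 12 both lay below the other 4 aged obese libraries for 11 of the 25 expressed members (44.0%), against 27.2% of the 12164 genes, and above them for 3 (12%), against 27.9%. Adamts15 had 0.0214 and 0.202 CPM in aged obese 10 and 12, and 1.98 to 4.07 CPM in the other 4. Mmp3 had 0.0856 and 0.303 CPM in the pair and 3.15 to 19.7 CPM in the others. Timp3 had 416.2 and 425.0 CPM in the pair and 825.0 to 2224 CPM in the others. Above the other libraries lay Mmp17, Mmp15 and Adamts6. Of the 14 members high in young obese 1 and 2, 8 (57.1%) were among the 11 low in aged obese 10 and 12, beside 44.0% of all 25 expressed members. These 8 made up 72.7% of the 11, beside 56.0% of the 25: Adamts2, Adamts5, Adamts15, Mmp3, Mmp19, Mmp23, Timp2 and Timp3. The same overlap was not counted over all genes, so it cannot be read as particular to the members.

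The sorting marker Cd34 moved with these libraries. Its level was 0.193 CPM in aged obese 10 and 0.732 CPM in aged obese 12, while the other aged obese libraries had 9.67 to 37.9 CPM. In young obese 1 and 2 it was 26.1 and 27.9 CPM, and 0.911 to 2.79 CPM in the rest of that group. Ly6a was low in both pairs: aged obese 10 and 12 had 176.4 and 361.7 CPM, with 917.1 to 1018 CPM in the others, and young obese 1 and 2 had 549.4 and 689.0 CPM, with 718.0 to 810.5 CPM in the others. Of 7 mural markers, Acta2, Myh11 and Des were higher in aged obese 10 and 12 than in each of the other 4 (Acta2 6858 and 5291 CPM, with 3045 to 5252 CPM in the others). Notch3 was lower there (7.30 and 16 CPM, with 30.4 to 68.1 CPM in the others), and Rgs5, Cspg4 and Kcnj8 were not apart. The part of these differences in the members' values was not tested. The closest libraries within a group, young obese 19 and 21, still differed by 6.79 times the variance that sampling of counts gives. Young obese 1 and 2 differed by 8.75 times that variance from each other and by 166 to 398 times from the other 6. The labels do not say whether such libraries shared handling, and p-values take all 8 as separate mice.

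**Figure D5:**
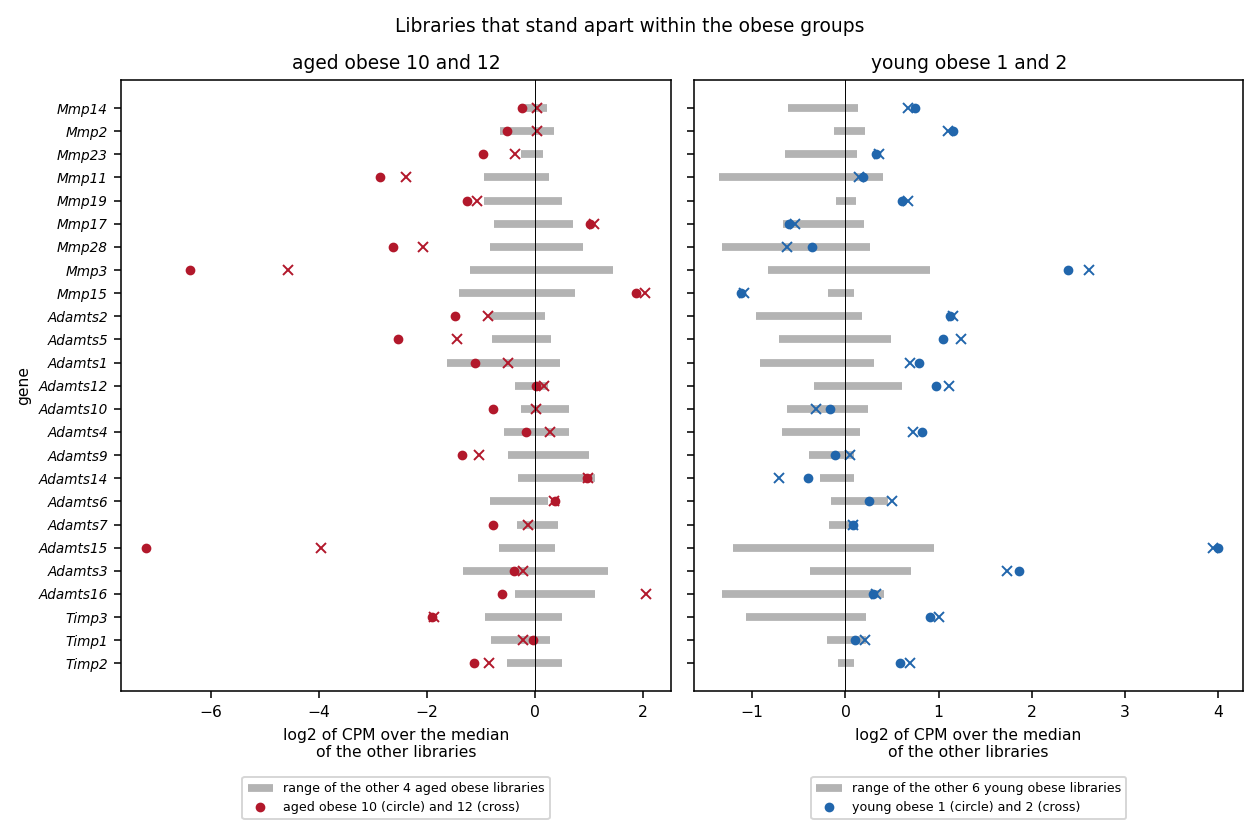
Log2 of the CPM of aged obese 10 and 12 (left) and young obese 1 and 2 (right) over the median of the other libraries of their group, for the 25 expressed members (rows). Grey bars give the range of the other libraries (4 aged obese, 6 young obese). Adamts15, Mmp3, Timp3 and Adamts5 lie below the bar in the left panel and above it in the right panel.

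Spread within groups was widest in aged obese libraries. The median SD of log2 CPM over the 25 expressed members was 0.72 in aged obese, 0.46 in aged lean, 0.48 in young obese and 0.43 in young lean libraries, beside 0.383, 0.298, 0.264 and 0.292 over all tested genes. Of the 25 members, 15 had their highest and 10 their lowest value of all 30 libraries in an aged obese library, and aged obese 10 alone held 7 of the lowest. Members differed in how far they ranged: the highest library was 2.76 times the lowest for Mmp14 and 3.08 times for Timp2, but 230.5 times for Mmp3 and 440.7 times for Adamts15.

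Some genes whose products activate these proteases were tested beside them. Of 17 tested genes that activate, inhibit or clear these proteases, 4 were called higher in aged obese against young lean libraries. Of all tested genes, 5.62% were. Among the 4 were Furin, Plau and Plaur, which encodes the urokinase receptor. Furin, a convertase that removes the propeptide of Mmp14 and Mmp11, averaged 228.0 ± 43.1 CPM in aged obese and 141.5 ± 19.6 CPM in young lean libraries (SD, n = 6 and 8), a log2 fold change of 0.69 ± 0.12 (edgeR, adjusted p = 0.00360). Plau, which encodes urokinase, averaged 298.1 ± 59.9 CPM in aged obese and 195.7 ± 21.97 CPM in young lean libraries (0.61 ± 0.12, adjusted p = 0.00529). The calls of Furin, Plau and Plaur in this comparison held in 30 of 30 fits without 1 library, and that of Plaur ended with voom (adjusted p = 0.0781).

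Plau was also called higher with age among obese mice (0.52 ± 0.12, adjusted p = 0.0223), and Furin with obesity among aged mice (0.55 ± 0.12, adjusted p = 0.0486). The Furin call held in 10 of the 30 fits without 1 library (adjusted p up to 0.134). It ended without both aged obese 10 and 12 (0.140), with no filter (0.0628) and with only the groups compared (0.301). The Plau call held in 29, ending without aged obese 17 (edgeR, adjusted p = 0.0547), and it also ended with only the groups compared (0.05885). Plasminogen itself (Plg), whose product cuts several Mmp precursors, averaged 0.000869 CPM.

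Of 8 Adam proteases, membrane-bound relatives of the Adamts family, Adam12 and Adam19 were called higher with obesity among young mice (0.48 ± 0.14, adjusted p = 0.0380, and 0.57 ± 0.18, adjusted p = 0.0426) and in aged obese against young lean libraries (0.63 ± 0.15, adjusted p = 0.0133, and 0.63 ± 0.19, adjusted p = 0.0317). Without young obese 1 and 2 neither was called with obesity among young mice (adjusted p = 0.160 and 0.263), and with 1 library left out these calls held in 23 and 22 of 30 fits. Both also ended with no filter (edgeR, adjusted p = 0.0590 and 0.0669), with the offset by GC and length (0.0752 and 0.0937) and with only the groups compared (0.0502 and 0.0693). In aged obese against young lean libraries the Adam12 call held in 30 of 30 such fits and ended with only the groups compared (adjusted p = 0.0567). The Adam19 call held in 23 of 30 and ended without aged obese 10 and 12 (0.110), with voom (0.0540) and with only the groups compared (0.0593). Of 7 Adamtsl proteins, which lack the protease domain, of 11 procollagen, proteoglycan and other substrates and of 8 AP-1 genes, edgeR called 0 in any of the 6 comparisons. Over these comparisons, unadjusted p lay below 0.05 in 7 of 42, 9 of 66 and 6 of 48 tests, DESeq2 called 1, 5 and 1, and voom with quality weights called 2, 3 and 7, all higher. Of all tested genes, 5.35% (age among lean mice) to 28.3% (obesity among young mice) had an unadjusted p below 0.05. DESeq2 called 7 (interaction) to 2075 (aged obese against young lean) of 14438 genes. With voom it was 6 (age among lean mice) to 4266 (obesity among young mice).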

How the data were processed

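The values are raw counts, deposited by the authors as whole reads per Ensembl gene in 1 table of 30 libraries, which were grouped by title. The submitters' processing notes name STAR, HTSeq 0.7.0 and DESeq2 1.12.4. Genome build, annotation and strand setting are not given in the sources used here. Lines naming no gene (5, with 3.94% to 8.75% of reads in no feature and 2.69% to 3.41% ambiguous) were left out. Symbols matched 36639 of 38561 identifiers, and biotypes and transcript lengths came from GENCODE.

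Counts were scaled with TMM in edgeR 4.0.16 (R 4.3.3) and filtered by group with filterByExpr, which left 14438 genes. All 30 libraries entered a quasi-likelihood model in which each group had its own term, and p-values were adjusted over all tested genes by the Benjamini-Hochberg method. CPM are relative to the scaled totals. Interval bounds and the limit of a count of 0 (3 counts) cover counting error or the fitted spread only. Alternatives were DESeq2 size factors, no filter, DESeq2 1.42.0, limma 3.58.1 with voom and quality weights, only the groups compared, an offset by GC and transcript length, the mouse number as a block, each library left out, and the sets of libraries that stood apart left out. The fitting was tested on simulated data.

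Named were all called members, the 4 members of each family with the highest level per kb, all Timp genes and the 2 members with the smallest adjusted p of comparisons without a call. Other members, named for their role or for a high, low or shared value, were chosen after their values were seen. The members, lists and alternatives were chosen with earlier results of these data known. The labels give each mouse number and no batch, date or lane. Mouse numbers shared between groups come from the titles, and the numbers were not taken to pair the mice. The deviations of libraries that share a number from their group means correlated between -0.517 and 0.39. Libraries with different numbers were not correlated in this way, so this range cannot decide whether the numbers pair the mice. Of the genes that activate, inhibit or clear these proteases, some results are not reported here.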

Additional observations from a re-analysis of the deposited data

Results flagged for a closer look

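Among the 17 named members, 68 sets of library values (1 per gene and group) were screened for a library far from the rest of its group by Dixon's criterion, and 8 were marked. Chance would mark about 1 in 20 such sets if the values were independent and normally distributed. The screen used CPM without a log, and the sets share libraries, so the 8 marks cannot be read as an excess. Young lean 26 stood above its group for Mmp14 (1335 CPM) and Adamts5 (565.9 CPM), and young lean 1 for Timp1 (1477 CPM) and Timp3 (1730 CPM). Another young lean library was high for Adamts3 (3.52 CPM, against at most 1.42 CPM in the other 7), and young obese 22 was low for Mmp11 (58.2 CPM). The rare membrane protease Mmp16 was high in aged obese 15 (1.67 CPM) and in aged lean 13 (1.77 CPM). Without aged obese 15, Mmp16 was called lower in aged obese than in young lean libraries (adjusted p = 0.0413). Without the young lean library at 3.52 CPM the log2 fold change of Adamts3 in this comparison was 1.97 ± 0.44. Each of these libraries was the highest of its group, so leaving it out moved the fold change that way by construction.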

How the results depend on the processing

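The number of members at a mean of 1 CPM or more was 25 with TMM-scaled and with plain CPM. The number of members called moved with the processing, and the cause was not tested. With age among obese mice (1 member) it was 2 by DESeq2, 0 with no filter, 2 with the offset by GC and length, 0 with only the groups compared, 9 with voom and quality weights, 3 without aged obese 10 and 12, 5 without young obese 1 and 2, and 0 to 3 when 1 library was left out. With obesity among young mice (0) it was 1 by DESeq2, 1 with only the groups compared, 8 with voom, 1 without aged obese 10 and 12, and 0 to 1 when 1 library was left out. With obesity among aged mice (1) it was 2 by DESeq2, 0 with no filter, 2 with the offset, 0 with only the groups compared, 2 with voom, 0 without aged obese 10 and 12, 2 without young obese 1 and 2, and 0 to 3 when 1 library was left out. In aged obese against young lean (2) it was 4 by DESeq2, 1 with the offset, 1 with only the groups compared, 5 without aged obese 10 and 12, 4 without young obese 1 and 2, and 1 to 5 when 1 library was left out. For the interaction (0) it was 2 with voom and 0 when any 1 library was left out, and for age among lean mice 0 throughout. Counts over all genes moved as well, given here in the order of the settings above, with 13626 to 25811 genes tested. With age among obese mice (443) they were 855, 253, 487, 181, 2870, 2679, 643 and 43 to 1027. With obesity among young mice (1275) they were 1793, 1642, 4266, 1852 and 201 to 2197. The offset gave 275 there, and the fit without young obese 1 and 2 gave 143. With obesity among aged mice (32) they were 187, 18, 73, 0, 114, 9, 49 and 9 to 435. In aged obese against young lean (1483) they were 2075, 1612, 410, 1513, 1771 and 642 to 2405. For the interaction (1) they were 91 with voom and 1 to 6 when 1 library was left out.

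With the mouse number as a block, which is not known to pair the mice, 0 of 14438 genes and so 0 members were called in every comparison. Most numbers mark a single library, which then adds nothing to a comparison, so this fit cannot decide whether a call holds. In aged obese against young lean the fold changes of Mmp17 (-0.42, adjusted p = 0.983) and Plaur (-0.53, adjusted p = 0.983) had the opposite sign. These groups share no mouse number, so their comparison in this fit rests on links through the other groups. With voom and quality weights the 9 members called with age among obese mice (Adamts2, Adamts3, Mmp2, Mmp3, Mmp14, Mmp19, Mmp23, Mmp25 and Timp2) were all higher, and of the 8 called with obesity among young mice 6 were lower and 2 (Adamts9 and Adamts12) higher. Depth limits the rare members: 15 were not tested, and Mmp25 rested on 562 counts. Member transcripts were longer (median 4803 bases) than those of all tested genes (2986 bases).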

Other observations

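Ratios of members that act on each other, both in CPM per kb, varied between libraries of a group. Mmp14 over Timp2 averaged 2.15 ± 0.78 in aged obese libraries (SD, n = 6), 1.49 ± 0.40 in aged lean, 1.77 ± 0.28 in young obese and 1.68 ± 0.34 in young lean libraries (n = 8 each), and the groups overlapped. Mmp2 over Mmp14 was steadier, at 0.542 ± 0.096 in aged obese, 0.610 ± 0.113 in aged lean, 0.497 ± 0.079 in young obese and 0.534 ± 0.064 in young lean libraries. Adamts5 over Timp3 ranged from 0.0499 to 0.272 in aged obese, 0.0839 to 0.385 in aged lean, 0.121 to 0.166 in young obese and 0.0904 to 1.25 in young lean libraries. No test was run on these ratios.

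The summed level of the members, in CPM, was 7511 ± 2072 in aged obese (n = 6), 6210 ± 950.3 in aged lean, 5973 ± 1816 in young obese and 5843 ± 677.7 CPM in young lean libraries (SD, n = 8 each), again with overlapping groups.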
